A study of Rattus norvegicus with 17 samples.

Results

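Il24 and Il19 are genes of the IL-10 cytokine family from one cluster on chromosome 13, and their RNA was followed here through every kidney library of a rat model of chronic kidney disease. They were chosen on measured values, because their counts in these libraries were near 0 in control kidneys and high in diseased ones, and they are 2 of the 23487 genes in the deposited count tables. The files list Il24 as ENSRNOG00000004470 and Il19 as ENSRNOG00000025571, both on chromosome 13. Since the choice used the difference between diseased and control kidneys, that difference is described below without a test, and tests were kept for the variation among diseased rats, which the choice did not use.

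The kidneys came from male Wistar Han rats, with 1 bulk RNA-seq library per rat. In 12 rats sub-total nephrectomy (SNx) had removed most of the kidney mass. The plan was to take the remnant kidney once proteinuria or serum creatinine had passed preset limits, but by the study's own account a minority of its operated rats in the experiment with this number of controls reached them. The labels do not say which of the 12 libraries come from such rats, so disease stage and time after surgery are not known per library. The other 5 rats were controls, which the sample labels call NoOp and the study's methods call sham, and NoOp is used here. No genotype or drug treatment is given for either group, and the labels state neither age nor replicate number, so the libraries are named SNx 1 to SNx 12 and NoOp 1 to NoOp 5. The SNx libraries held 19210434 to 30784070 counts (median 22709319) and the NoOp libraries 30454170 to 43876369 (median 32745316), so the controls were counted more deeply. The library numbers in the labels fall in 2 ranges with 6 SNx libraries in each and all 5 NoOp libraries in the lower one, and what the numbers stand for is not stated. Whole tissue was sequenced, and a change in the number of cells that make a transcript cannot be told apart from a change in the amount per cell.

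IL-19, IL-20 and IL-24 are secreted cytokines that bind receptors built on the IL-20 receptor beta chain. The receptors act through Janus kinases on STAT3, the transcription factor that also serves cytokines of the gp130 group such as IL-6, LIF and oncostatin M. In skin and other epithelia these cytokines are known for their part in the response to inflammation and wounding, and SOCS3, itself a STAT3 target, limits the signal. In the RefSeq order of genes on rat chromosome 13, Il24, Il20, Il19 and Il10 follow one another directly. Of the 5 family members on the list used here, Il24 and Il19 had an identifier, and Il10, Il20 and Il22 were not analysed here.

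The stretches before the starts of both genes are shown because the levels of the genes varied together among the SNx rats. Each is 250 bases of RefSeq sequence in build GRCr8, ending 1 base before the annotated start and read 5′ to 3′ on the minus strand, from chr13:44910761-44911010 for Il24 and chr13:44958715-44958964 for Il19. The deposited counts rest on the older build rn6. Capitals mark matches to TTCNNNGAA, the core letters of sites bound by STAT factors, which reads the same on both strands.
Il24: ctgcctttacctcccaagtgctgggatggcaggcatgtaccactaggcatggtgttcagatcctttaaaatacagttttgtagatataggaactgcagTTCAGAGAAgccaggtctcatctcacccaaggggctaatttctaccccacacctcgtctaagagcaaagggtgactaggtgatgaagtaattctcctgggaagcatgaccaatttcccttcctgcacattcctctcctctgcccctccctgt
Il19: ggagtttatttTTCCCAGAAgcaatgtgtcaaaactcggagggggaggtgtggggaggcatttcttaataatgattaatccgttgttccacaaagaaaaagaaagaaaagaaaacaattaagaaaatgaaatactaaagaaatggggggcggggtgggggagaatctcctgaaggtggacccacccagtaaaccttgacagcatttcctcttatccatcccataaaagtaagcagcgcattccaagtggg
The Il24 stretch held TTCAGAGAA, which begins 152 bases before the start, and the Il19 stretch held TTCCCAGAA, which begins 239 bases before it. These letters occurred in 7.67% of the 33469 rat promoter stretches of the same length. The stretch before Il20, which lies between them, held no match. On either strand none of the 3 stretches held TGANTCA (letters of AP-1 sites, in 6.34% of all stretches), GGNNTTTCC (letters of NF-kappaB sites, in 5.19%) or TATANA (letters of a TATA box, in 24.2%). A match describes letters and does not show that a factor binds there.

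Il24 counts in SNx 1 to SNx 12 were, in order, 576, 233, 148, 60, 575, 343, 168, 438, 93, 175, 55 and 197. Among the controls, NoOp 3 had 2 Il24 counts and the other 4 libraries had 0. Every SNx library thus lay above every NoOp library, and the lowest SNx count was 55. In CPM, a unit that divides each count by the TMM-scaled total of its library, Il24 ranged from 2.14 to 27.6 CPM in SNx with a median of 8.20, and its mean was 10.97 ± 8.78 CPM (SD, n = 12). A count of 0 in a NoOp library was read as allowing up to 3 counts, or 0.0776 to 0.107 CPM depending on the library. Over all libraries 3061 counts in SNx stood against 2 in NoOp, a ratio of rates of 804 with a 95% exact counting interval of 222 to 6645. This interval and those below cover counting error only and leave out the spread between rats. The counts are estimates and no molecular identifiers were used, so counting error itself may be understated. Without NoOp 3 no Il24 count was left in the controls, and the interval then had a lower end of 344 and no upper end. The lowest SNx level, 2.14 CPM in SNx 4, was 20.1 times what 3 counts are worth in the NoOp library with the highest such value. That value is no upper limit for all controls, since the counting interval of NoOp 3, with 2 counts, reached 0.219 CPM.

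Il19 counts in SNx 1 to SNx 12 were 396, 388, 228, 128, 599, 282, 231, 640, 183, 267, 82 and 339. NoOp 1 to NoOp 5 had 0, 0, 3, 3 and 1. The groups did not overlap for Il19 either, with at least 82 counts in SNx and at most 3 in NoOp. Il19 ranged from 3.83 to 27.9 CPM in SNx with a median of 13.3 and a mean of 13.1 ± 7.83 CPM (SD, n = 12). The 3763 counts in SNx against 7 in NoOp gave a ratio of rates of 283 with a 95% exact counting interval of 137 to 703. The lowest SNx level, 3.83 CPM in SNx 11, was 35.9 times what 3 counts are worth in the NoOp library where they are worth most. For Il19 too this value is no upper limit, since NoOp 3 had 3 counts and a counting interval that reached 0.266 CPM.

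**Figure D1:**
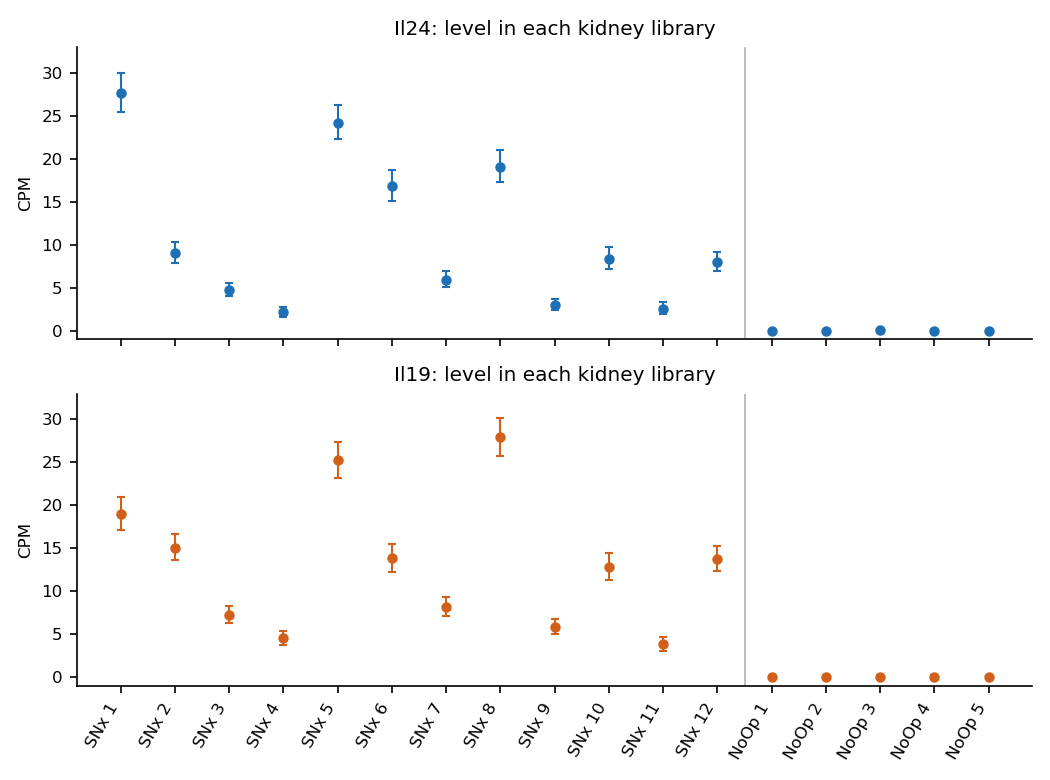
Level of Il24 (upper panel) and Il19 (lower panel) in each kidney library, in CPM on a linear axis, with 95% exact counting intervals as bars. The 12 SNx libraries, left of the grey line, lie between 2.14 and 27.6 CPM for Il24 and between 3.83 and 27.9 CPM for Il19, and the 5 NoOp libraries lie at or near 0.

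The background to this pattern is given without reading anything from it, as it is the pattern the genes were chosen for. Every SNx library lay above every NoOp library for 2085 of the 15438 genes tested (13.5%). Of these tested genes, 96 had at most 3 counts in every NoOp library, and 41 of the 96 had more than 3 in every SNx library, which is 0.266% of all genes tested. A gene so low in NoOp could pass the filter on low counts only through its SNx libraries, so these counts were set in part by the filter.

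Levels differed widely among the SNx rats. The highest Il24 level was 12.9 times the lowest, and the highest Il19 level was 7.29 times the lowest, with coefficients of variation of 80.0% and 59.7%. In descending order of Il24 the libraries were SNx 1, 5, 8, 6, 2, 10, 12, 7, 3, 9, 11 and 4. The counting intervals of neighbours in this order overlapped in 7 of 11 pairs, and the 4 steps that were larger lay between SNx 5 and SNx 8, SNx 6 and SNx 2, SNx 12 and SNx 7, and SNx 3 and SNx 9. In descending order of Il19 the libraries were SNx 8, 5, 1, 2, 6, 12, 10, 7, 3, 9, 4 and 11, and neighbours overlapped in 8 of 11 pairs. SNx 1, SNx 5 and SNx 8 thus held the 3 highest levels of both genes, and SNx 4, SNx 9 and SNx 11 the 3 lowest. Mean log2 CPM of Il24 was 3.35 ± 1.43 in the SNx libraries of the lower number range and 2.66 ± 1.05 in those of the upper range (SD, n = 6 each). The difference of 0.69 was within the spread between rats (two-sided exact permutation test, p = 0.366, 924 splits). For Il19 the difference was 0.31 (p = 0.576, same exact permutation test).

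Across the 12 SNx libraries Il24 and Il19 varied together (Pearson r = 0.944, permutation p = 4.0e-05, adjusted p = 0.00035 over the 35 pairs of measures examined in the SNx libraries, Spearman rho = 0.951). Without SNx 4 and SNx 11, the libraries farthest from the median of Il19, r was 0.912. The relation held within each range of library numbers, with r = 0.953 in the lower (exact permutation p = 0.0069, n = 6) and r = 0.985 in the upper (exact permutation p = 0.0028, n = 6). Of the 13348 tested genes that averaged 1 log2 CPM or more in SNx, none was more like Il19 in this respect than Il24, whereas 43 genes were more like Il24 than Il19 was.

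The proportion of the 2 transcripts was also read in each rat. Il19 took 55.1% of the summed Il19 and Il24 counts of all SNx libraries, and the share per rat was 57.9 ± 8.25% (SD, n = 12). Counts also depend on transcript length, so the share is read only between rats. It was lowest in SNx 1 at 40.7% (95% exact binomial interval 37.6 to 43.9), SNx 6 at 45.1% (41.2 to 49.1) and SNx 5 at 51.0% (48.1 to 53.9). It was highest in SNx 4 at 68.1% (60.9 to 74.7) and SNx 9 at 66.3% (60.4 to 71.9). In the other 7 rats it lay between 57.9% and 63.2%. The counting interval missed the pooled share in 10 of 12 rats. With 1 library per rat, variation between animals cannot be told apart from variation in library preparation, which the interval does not cover. The rats with the lowest shares had 3 of the 4 highest Il24 levels, and those with the highest shares had 2 of the 4 lowest, although Il24 counts enter the share itself.

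**Figure D2:**
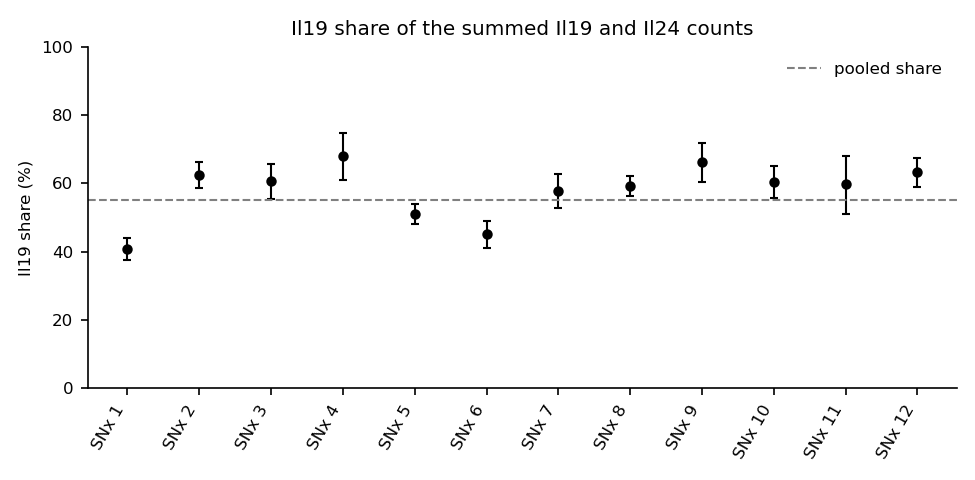
Il19 share of the summed Il19 and Il24 counts in each SNx library, in percent, with 95% exact binomial intervals as bars and the pooled share of 55.1% as a dashed line. SNx 1, SNx 6 and SNx 5 lie below the line with their whole intervals, and SNx 4 has the highest share at 68.1%.

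Both cytokines were compared with 16 partner genes for tubular injury, tubule identity, matrix, leukocytes and STAT3 signalling, and with the total count, over the same 12 SNx libraries. These partners were picked with earlier results of the data known, and r was past an adjusted p of 0.05 in 23 of the 34 pairs. Among the 13348 genes, r was at least 0.9 for 276 with Il24 and 38 with Il19, and -0.9 or below for 320 and 17. The share of those genes that would pass was not computed, so nothing particular to the partners is read from their count. The partner with the highest Pearson r over the 12 libraries was Lif for both cytokines, and by Spearman rho it was Socs3 (0.979 with Il24 and 0.930 with Il19, against 0.972 and 0.881 for Lif). Lif encodes leukaemia inhibitory factor, a gp130 cytokine that acts through STAT3. Its level ran from 2.53 to 5.05 log2 CPM in SNx (median 3.55) and from 0.66 to 1.33 in NoOp, so the groups did not overlap. Il24 followed Lif with r = 0.976 (permutation, adjusted p = 0.00035), and Il19 followed it with r = 0.885 (permutation, adjusted p = 0.0011). Without SNx 1 and SNx 5, r with Lif was 0.961 for Il24 and 0.863 for Il19. Socs3, the feedback inhibitor of STAT3 signalling, ran from 3.87 to 6.24 log2 CPM in SNx and from 1.24 to 1.96 in NoOp. Its r was 0.944 with Il24 and 0.858 with Il19 (permutation, adjusted p = 0.00035 and 0.0017). Stat3 itself had r = 0.782 with Il24 and 0.824 with Il19 (permutation, adjusted p = 0.0074 and 0.0030). For Osmr, the oncostatin M receptor chain that pairs with gp130, r was 0.639 and 0.632 (permutation, adjusted p = 0.041 for both), but rho did not pass (adjusted p = 0.087 and 0.14), and without SNx 11 and SNx 12 the r of 0.613 and 0.609 did not pass either. Leaving out any single one of SNx 1, 3, 4, 6, 7, 8 and 11 also ended both calls for Osmr (r between 0.544 and 0.646 with Il24 and between 0.481 and 0.643 with Il19).

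The injured-tubule partners Lcn2, Cd44, Spp1 and Clu rose and fell with the cytokines among SNx rats, and other injured-tubule markers were not correlated singly. Lcn2, which encodes the iron-carrier binding protein NGAL, had r = 0.930 with Il24 and 0.860 with Il19 (permutation, adjusted p = 0.00077 and 0.0017). Cd44, a hyaluronan receptor, had r = 0.922 and 0.866, Spp1, the secreted phosphoprotein osteopontin, had 0.885 and 0.827, and Clu, the chaperone clusterin, had 0.825 and 0.834, with adjusted permutation p between 0.00035 and 0.0032 for these 6 pairs. Slc3a1 and Lrp2, the partners from intact proximal tubule, ran the other way, and the other measured proximal-tubule markers were not correlated singly. Slc3a1, a subunit of the cystine transporter, ran from 7.25 log2 CPM in SNx 1 to 11.2 in SNx 11, and its r was -0.881 with Il24 and -0.742 with Il19 (permutation, adjusted p = 0.00093 and 0.012). Lrp2, the endocytic receptor megalin, had r = -0.850 and -0.717 (permutation, adjusted p = 0.0011 and 0.016). Whether Il24 and Il19 differed in any of these relations was not tested.

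Partners from matrix, basal cells and T cells and the pan-leukocyte marker did not pass over the 12 libraries, and the macrophage partner Cd68 did. Whether these r values differed from those of the injury and tubule genes was not tested. For Col3a1, a fibrillar collagen, r was 0.291 with Il24 and 0.124 with Il19, and for Timp1, an inhibitor of matrix proteases, it was 0.374 and 0.257, with adjusted permutation p of at least 0.296. The r with Col3a1 turned to -0.158 and -0.176 without SNx 1 and rose to 0.546 and 0.454 without SNx 8. The r with Timp1 turned to -0.256 and -0.297 without SNx 1 and SNx 11. Krt5, a basal-cell keratin, had r = 0.08 and 0.01, which became -0.190 and -0.146 without SNx 1 and 0.433 and 0.345 without SNx 5. Ptprc, which encodes the pan-leukocyte marker CD45, had r = -0.060 and 0.00, with values between -0.230 and 0.161 when single libraries were left out and 0.352 and 0.375 without SNx 6 and SNx 8. Trbc2, a constant region of the T-cell receptor, had r = -0.597 and -0.438 (permutation, adjusted p = 0.059 and 0.20), and without SNx 11 both passed, with r = -0.761 and -0.648 (permutation, adjusted p = 0.013 and 0.047). Cd68, a lysosomal protein of macrophages, had r = 0.703 and 0.648 (permutation, adjusted p = 0.019 and 0.038), although rho with Il19 did not pass (0.538, adjusted p = 0.11). Both r values fell to 0.438 and 0.497 without SNx 1 and SNx 5 and no longer passed. Without SNx 1 alone r with Cd68 was 0.608 and 0.627, and without SNx 4 alone 0.614 and 0.557, and neither passed. The call with Il19 was also lost without SNx 5 (0.569), SNx 7 (0.639) or SNx 11 (0.586). Without SNx 8 the r with Cd68 was higher, 0.834 and 0.860. With 12 rats an r of moderate size can be missed, and the pairs that did not pass are not shown to be unrelated.

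**Figure D3:**
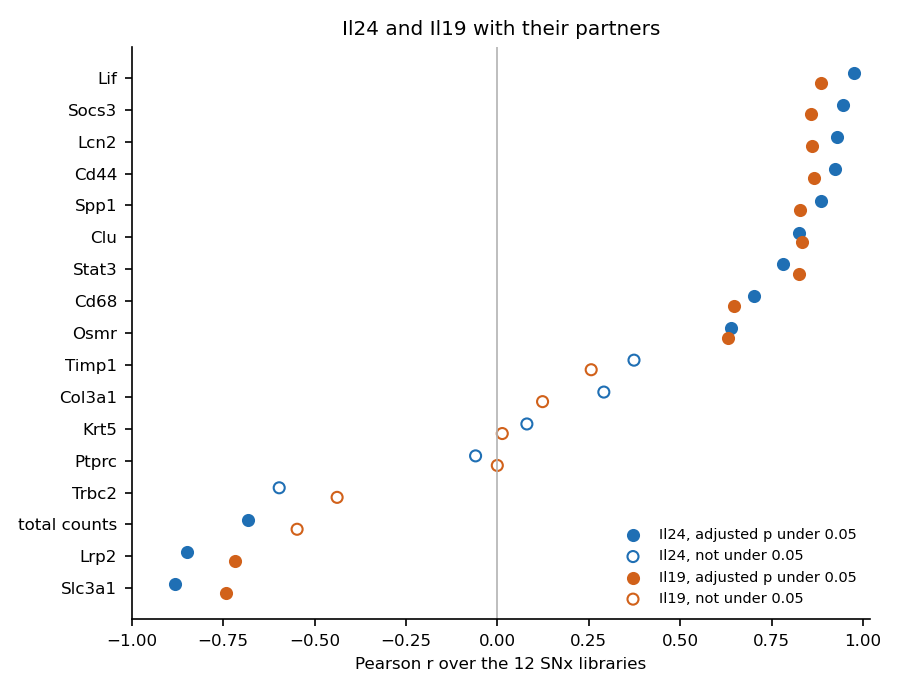
Pearson r of log2 CPM of Il24 (blue) and Il19 (orange) with each partner gene and with the total count over the 12 SNx libraries. Filled circles have a permutation p under 0.05 after Benjamini-Hochberg adjustment over 35 pairs and open circles do not; Lif, Socs3, Lcn2 and Cd44 lie at the top with r between 0.858 and 0.976, and Slc3a1 and Lrp2 at the bottom.

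Depth ran against the level of Il24 as well, and its r with Il19 did not pass. The total count of a library had r = -0.683 with Il24 (permutation, adjusted p = 0.027) and -0.548 with Il19 (adjusted p = 0.090), and without SNx 3 and SNx 9 the r with Il24 was -0.619 (permutation p = 0.057). The call with Il24 was lost without SNx 1, 4, 6 or 9 singly (r between -0.651 and -0.617), and that with Il19 was gained without SNx 11 (r = -0.732). The part of depth in the relations above was not tested. RNA integrity, which the study's methods give as a wide range over all samples, was not known per library, and its part was not tested.

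Within the ranges of library numbers (n = 6 each), r of Il24 was 0.980 and 0.970 with Lif in the lower and the upper range, 0.943 and 0.937 with Socs3, 0.979 and 0.817 with Lcn2, and 0.951 and 0.854 with Cd44. These 8 values passed an exact permutation test with unadjusted p between 0.0014 and 0.049. It was 0.897 and 0.839 with Spp1, 0.915 and 0.820 with Clu, -0.919 and -0.770 with Slc3a1, -0.865 and -0.819 with Lrp2, and 0.946 and 0.656 with Stat3. In the upper range Slc3a1, Lrp2 and Stat3 did not pass (exact permutation p = 0.069, 0.051 and 0.15). For Il19 the values were 0.882 and 0.954 with Lif, 0.836 and 0.943 with Socs3, 0.911 and 0.883 with Lcn2, 0.948 and 0.873 with Cd44, 0.845 and 0.843 with Spp1, 0.826 and 0.861 with Clu, and 0.980 and 0.705 with Stat3, of which the last did not pass (exact permutation p = 0.11). Those of Il19 with Slc3a1 were -0.793 and -0.731, and with Lrp2 -0.714 and -0.801, none of which passed. Cd68 had r = 0.835 with Il24 and 0.889 with Il19 in the lower range (exact permutation p = 0.039 and 0.015) and 0.217 and 0.311 in the upper, where neither passed. Osmr had r = 0.918 and 0.766 in the lower range (exact permutation p = 0.017 and 0.079) and 0.582 and 0.601 in the upper, where neither passed. Col3a1 had r = 0.468 and 0.365 in the lower range and -0.351 and -0.363 in the upper, none of which passed. For Timp1 the values were 0.510 and 0.404 in the lower range and -0.084 and -0.021 in the upper. For Trbc2 they were -0.786 and -0.713 in the lower range and -0.119 and -0.061 in the upper, and none of these values of Timp1 and Trbc2 passed. The total count had r = -0.876 with Il24 in the lower and -0.456 in the upper range, and -0.745 and -0.366 with Il19. All calls above within the ranges rest on unadjusted p-values. After adjustment over the pairs, 15 of 34 passed in the lower range and 4 of 34 in the upper. Those 4 were Lif and Socs3 with each cytokine, and no injured-tubule or proximal-tubule partner passed in the upper range.

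**Figure D4:**
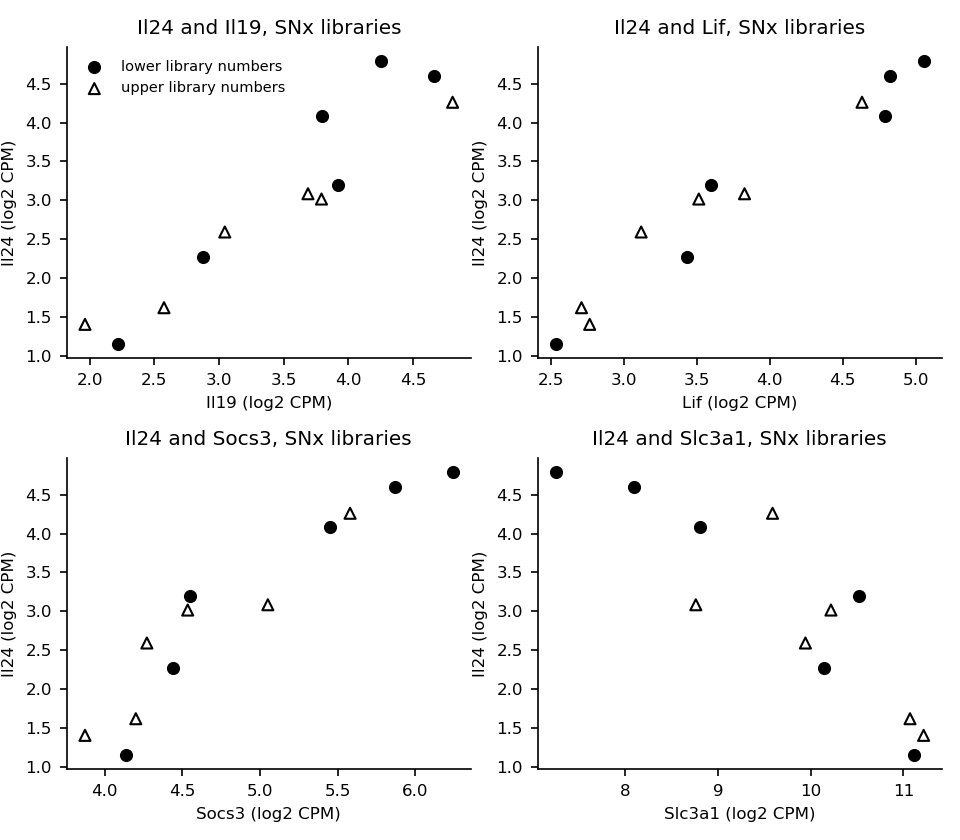
Il24 level against the level of Il19, Lif, Socs3 and Slc3a1 in the 12 SNx libraries, all in log2 CPM, with filled circles for the lower and open triangles for the upper range of library numbers. Il24 rises with Il19 (r = 0.944), Lif (r = 0.976) and Socs3 (r = 0.944) and falls with Slc3a1 (r = -0.881).

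Marker lists were also summed per library. The 8 measured of 11 injured-tubule markers summed to between 3702 CPM in SNx 11 and 17858 CPM in SNx 5 (median 8646), and to between 839 and 1198 CPM in NoOp, and Spp1 was the most abundant of them, with a mean of 7149.7 CPM in SNx. The 7 measured of 8 proximal-tubule markers, led by Lrp2, summed to between 1592 CPM in SNx 1 and 14886 in SNx 11 (median 9076), and to between 20163 and 23799 CPM in NoOp. All 8 injury markers rose and all 7 proximal markers fell in SNx, as did 30.3% and 27.7% of all genes tested (edgeR quasi-likelihood test, FDR < 0.05). Symbols were known only for genes in the study's own lists of changed genes, so which markers could be measured depended on change, and these marker counts and those that follow are no independent evidence of a direction. The 11 measured of 12 macrophage markers, led by Csf1r, summed to between 225 and 666 CPM in SNx and between 93.9 and 141 in NoOp, and 10 rose. The 6 measured of 13 T-cell markers, led by Cd4, summed to between 74.2 and 142 CPM in SNx and between 21.9 and 36.0 in NoOp, and all 6 rose. The 5 measured of 9 markers of basal keratinocytes and urothelium, led by Krt15, summed to between 1.85 CPM in SNx 5 and 171 CPM in SNx 1, and to between 2.10 and 17.4 in NoOp, and 3 rose. No measured marker was at 0 in all libraries. Among SNx libraries the summed injury markers had r = 0.898 with Il24 and 0.845 with Il19, and the proximal markers -0.870 and -0.737. The injury sum consists mostly of Spp1, so its r largely repeats that of Spp1 and does not speak for each marker, and r was not computed singly for Krt7, Krt8, Krt18 and Krt19. The sums of macrophage markers (0.435 and 0.301), T-cell markers (-0.134 and -0.081) and basal markers (0.053 and -0.028) had values nearer 0, and all these r values are descriptions without a test. The part of a shift in cell types in the levels of Il24 and Il19 was not tested.

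Among genes with a known symbol, those whose pattern over the 12 SNx libraries was most like that of Il24, by Pearson r of log2 CPM, were Pdgfb, which encodes the B chain of platelet-derived growth factor (0.977), Lif (0.976), P2ry2, a receptor for extracellular ATP and UTP (0.974), Ppm1l, a protein phosphatase (0.971), and Sbno2, a transcriptional regulator induced by IL-10 and STAT3 (0.964). Among all 13348 genes, named or not, these held places 1, 2, 3, 5 and 9, and the identifiers ENSRNOG00000061612 (0.972) and ENSRNOG00000019202 (0.969) held places 4 and 6. Of the genes with a symbol, the most unlike were Pink1, the kinase that marks damaged mitochondria (-0.967), Hlf, a PAR-type transcription factor (-0.966), and Abhd14a (-0.963). For Il19 the most alike with a symbol were Il24 (0.944), Sertad4 (0.937), Ppm1l (0.931), Pik3r1, the regulatory subunit of PI 3-kinase (0.928), and Adamts4, a protease of the matrix proteoglycan aggrecan (0.922), at places 1, 2, 5, 8 and 12 of all genes. Most unlike Il19 among genes with a symbol were Vamp8, a vesicle fusion protein (-0.932), Snx29 (-0.920) and Itga2b, the platelet integrin alpha-IIb (-0.917), at places 4, 9 and 11 of all genes. The identifiers ENSRNOG00000061058 (-0.953) and ENSRNOG00000001420 (-0.936) held places 1 and 2 there. An r of at least 0.9 was reached by 276 genes with Il24 and 38 with Il19, and an r of -0.9 or below by 320 and 17. Such values are shared by many genes in these 12 libraries, and the ranking is a description. In SNx against NoOp the log2 fold change was 0.96 for Pdgfb, 1.18 for P2ry2, 0.55 for Ppm1l, 1.88 for Sertad4, 0.86 for Pik3r1 and 3.13 for Adamts4, and it was -1.40 for Pink1, -1.68 for Hlf and -1.59 for Abhd14a, all past FDR < 0.05 in edgeR's quasi-likelihood test. Sbno2 passed too, with a mean of 8.38 ± 0.57 log2 CPM in SNx and 6.99 ± 0.09 in NoOp (SD, n = 12 and 5).

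Receptors of the wider IL-10 family and JAK-STAT signalling genes were then read in the comparison of SNx with NoOp. Of 15438 genes tested, 8949 passed (58.0%), and 52.2% of these were higher in SNx, against 74.6% when libraries were scaled by library size alone, under which the median over all genes shifted from 0.02 to 0.23 (log2). The same limit on symbols holds for the lists below, so their counts are not independent evidence of a direction. On the list of IL-10 family receptors and JAK-STAT genes 6 of 31 members had an identifier, and all 6 rose, with a median log2 fold change of 1.06 against 0.02 over all genes tested. Socs3 rose most, with a log2 fold change of 3.34 ± 0.43 (SE; FDR = 1.1e-05). Ifnlr1, the interferon-lambda receptor chain, rose by 1.67 ± 0.32, Il10ra, the ligand-binding chain of the IL-10 receptor, by 1.20 ± 0.14, Jak3, the kinase of the common gamma chain, by 0.92 ± 0.12, Stat3 by 0.73 ± 0.12, and Ptpn6, the phosphatase SHP-1, by 0.49 ± 0.09 (log2, SE). For Ifnlr1 and Ptpn6 the groups overlapped, and for the other 4 every SNx library lay above every NoOp library. This separation held for 13.5% of all genes tested, and the limit on symbols applies to this count too. The IL-20 receptor chains themselves were not analysed here, so these 6 genes include no receptor of IL-19 or IL-24.

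On the list of gp130 cytokines, their receptors and STAT3 targets 26 of 52 members had an identifier, of which 22 rose and 4 fell, with a median log2 fold change of 2.09. Of all genes tested 30.3% rose and 27.7% fell, with a median of 0.02, and the limit on symbols given above applies to this count. Lcn2 rose by 5.06 ± 0.53, Fgb, the fibrinogen beta chain, by 3.93 ± 0.34, Timp1 by 2.93 ± 0.31 and Cp, the copper protein ceruloplasmin, by 2.27 ± 0.23 (log2, SE). Irf1, an interferon-responsive transcription factor, rose by 1.55 ± 0.13, and Icam1, an adhesion molecule for leukocytes, by 1.34 ± 0.15. Lif rose by 2.96 ± 0.47 and Osmr by 2.44 ± 0.34. Cntfr, the receptor of ciliary neurotrophic factor, fell by 2.74 on the log2 scale (SE 0.25), from between 2.12 and 2.97 log2 CPM in NoOp to between -1.14 and 0.72 in SNx. Pim3, a serine/threonine kinase, fell by 1.70 (SE 0.19), Ctf1, the cytokine cardiotrophin-1, by 1.06 (SE 0.15), and Bcl6, a transcriptional repressor, by 0.59 (SE 0.23). The groups of Bcl6 overlapped, and those of the other 3 did not. The share of all genes tested that lay wholly below NoOp is not given, so nothing is read from this count. Bcl6 no longer passed without any single one of NoOp 1, 2 and 3 or SNx 2, 3, 10 and 12 (edgeR FDR between 0.051 and 0.14, log2 fold change between -0.58 and -0.43), nor when libraries were scaled by library size alone (-0.38, FDR = 0.18).

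Genes of the same stretch of chromosome 13 were read in the same comparison. Of 24 neighbours on the list 7 had an identifier, of which 3 rose, 3 fell and 1 did not pass, with a median log2 fold change of -0.02. Of all genes tested 30.3% rose and 27.7% fell, so nothing particular to these neighbours is read from the counts. Pigr, the polymeric immunoglobulin receptor, which is separated from Il24 by a single gene, had 9.04 to 9.67 log2 CPM in SNx and 9.19 to 9.65 in NoOp, a log2 fold change of -0.02 ± 0.11 (SE; FDR = 0.92). Rassf5, a Ras-binding protein 5 places beyond Il19, rose by 0.44 ± 0.08. Farther along, Ctse, the protease cathepsin E, rose by 1.60 ± 0.29, and Rab7b, a GTPase of endosomes, by 3.51 ± 0.27. Pm20d1, an enzyme that makes N-acyl amino acids, fell by 1.86 (SE 0.51), and Slc45a3, a sugar transporter, by 1.01 (SE 0.25). Rab29, a GTPase of the Golgi and lysosomes, fell from between 7.02 and 7.44 log2 CPM in NoOp to between 5.67 and 6.70 in SNx. Il10 and the other genes between Il19 and Rassf5 were not analysed here.

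**Figure D5:**
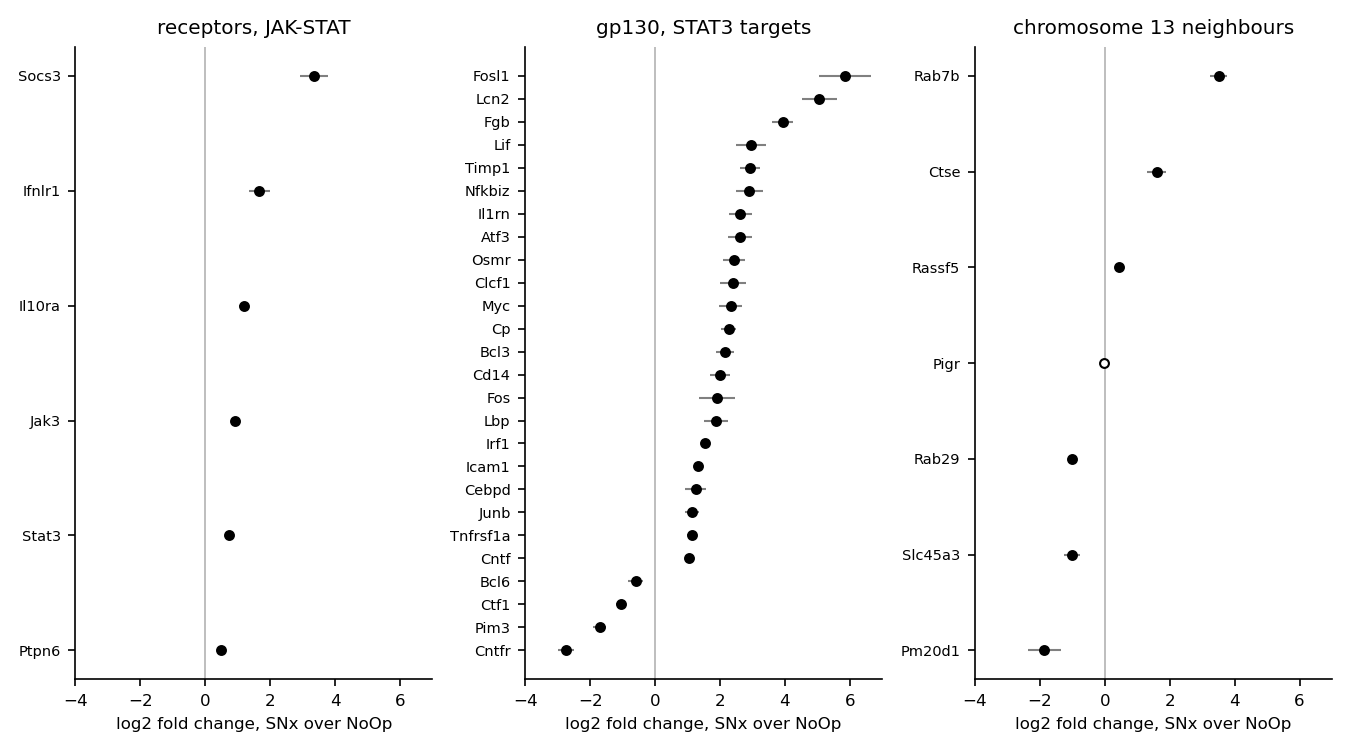
Log2 fold change of SNx over NoOp from edgeR's fit for the members with an identifier of the lists of receptors and JAK-STAT genes, gp130 and STAT3 genes, and chromosome 13 neighbours, with standard errors as bars. Filled points passed FDR < 0.05; all 6 receptor and JAK-STAT genes and 22 of 26 gp130 and STAT3 genes lie right of 0, and the open point is Pigr.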

How the data were processed

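Kidney RNA libraries from 12 SNx and 5 NoOp rats were analysed. The study's methods state ribosomal RNA depletion and strand-specific paired-end sequencing, while the labels give the molecule as polyA RNA. Transcripts were quantified by the authors against the Rn6 transcriptome and summed over genes by tximport, and the deposited tables hold estimated counts, all whole numbers and not normalized. The submitters' processing notes name Salmon, limma and rn6, and no version is given in the sources used here. For 13318 genes the authors also deposited log2 values after voom, which were used only as an alternative. The 34 columns of whole-series tables were not used, nor were the fold changes and p-values in the study's supplement, from which identifiers and symbols alone were taken (2007 genes).

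Members, lists and partners were chosen with earlier results of these data known. Since every deposited count was exactly whole, rounding before the tests changed no value. Genes were filtered with filterByExpr, scaled with TMM and tested two-sided with edgeR 4.0.16 (quasi-likelihood, R 4.3.3), with FDR < 0.05 by Benjamini-Hochberg over the 15438 genes that passed. Log2 CPM had a prior count of 2. Correlations used 100000 permutations, or all 720 pairings for 6 libraries, with scipy 1.17.1. P-values measure the spread between these rats, 1 library each. Named genes were at most 8 members per list by p-value and all that went against their list's majority, the 5 most and 3 least similar genes with a symbol, and the partners. Lif and Osmr were also named with their fold changes as partners. A gene of the gp130 and STAT3 list is not reported here, for a reason unrelated to its values, and the counts and median of that list are given without it. Both tests were tried on simulated data. As alternatives, limma-voom (limma 3.58.1), DESeq2 1.42.0, the deposited log2 values, RLE factors, library size alone, other filters, a prior count of 0.5, each library left out, and either range of library numbers were tried. Promoter stretches came from RefSeq (GRCr8). Figures were drawn with matplotlib 3.10.9 in Python 3.11.15.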

Additional observations from a re-analysis of the deposited data

Results flagged for a closer look

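Among the 5 NoOp libraries, the gap of 1 library to the rest exceeded Dixon's 95% limit in 3 of the 51 genes and members examined, where chance alone gives about 2.55. Il24 was -2.89 log2 CPM in NoOp 3, from 2 counts, with the other NoOp libraries at 0 counts and -3.75. With those 4 tied at the level of 0 counts, any single count would exceed the limit, and these near-0 control values are among those the gene was chosen on. Bcl3, a nuclear cofactor of NF-kappaB on the STAT3 list, was 3.39 log2 CPM in NoOp 2, with the nearest other library at 3.75. Ptprc was 2.85 log2 CPM in NoOp 5, with the nearest other library at 3.87. The SNx group, with 12 libraries, was not examined in this way.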

How the results depend on the processing

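Il24 lay above NoOp by 6.58 and Il19 by 6.67 in mean log2 CPM, and with a prior count of 0.5 in place of 2 these differences were 8.32 and 7.91, since the prior count sets the level of libraries with 0 counts. With single libraries left out they ranged from 6.42 to 6.75 and from 6.53 to 6.82. The r of Il24 with Il19 stayed between 0.932 and 0.958 with single libraries left out and between 0.941 and 0.985 under the other alternatives. Of the 34 pairs with partners, 23 passed, 18 to 23 with single libraries left out, 15 in the lower and 4 in the upper range of library numbers, where 6 libraries each enter. The relations with Osmr, Cd68 and the total count were those most often lost. Genes called in SNx against NoOp numbered 8949, between 7914 and 9438 with single libraries left out and between 7317 and 9447 otherwise. All 6 receptor and JAK-STAT genes and 6 chromosome 13 neighbours were called under every alternative, and 23 to 26 of the gp130 and STAT3 genes. The 23 came from the filter of 10 counts in every library, under which members below that count were not tested and Bcl6 still passed. Bcl6 was lost in 11 other alternatives. Of the list genes and partner pairs that passed, none changed sign, and the genes named for their likeness to Il24 or Il19 were not compared across the alternatives. The SNx and NoOp libraries came from different rats and the labels give no pairing between them, so no paired analysis was run. The near-absence of counts in NoOp limits any fold, and 12 rats limit the correlations.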
